A study of Mus musculus with 3 samples.

Results

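Granulosa cells are the somatic cells that surround the oocyte in a follicle, and the cells described here are those of them that carried almost no RNA of cell division. They were chosen as cells that the authors named follicular granulosa and in which the UMIs of Top2a, Mki67 and Ube2c, 3 genes of dividing cells, summed to 0 or 1. A UMI is a tag that marks 1 captured RNA molecule. This rule gave 1079 of 14353 cells in the series, out of 1283 follicular granulosa cells, and the other 204 are called dividing here. Because the rule read the cells' own counts, their low level of division genes is a description and no finding.

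Follicular granulosa cells multiply under follicle-stimulating hormone (FSH), convert androgen to oestradiol with the enzyme aromatase, and secrete inhibins and activins, dimers built from the products of Inha, Inhba and Inhbb. Small growing follicles are known for anti-Müllerian hormone (Amh), while large antral follicles gain aromatase and the receptor for luteinizing hormone (Lhcgr), which prepares them for ovulation and for turning into luteal cells. Most follicles never ovulate and are lost by atresia, in which granulosa cells die.

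Single-cell RNA sequencing with the 10x 3′ v3 kit was done on ovaries of C57BL/6 female mice. Cells of the conditions were marked by MULTI-seq, which tags cells with lipid-anchored DNA, and mixed. The metformin condition is aged mice that drank metformin, a drug used against diabetes, at 350 mg/kg/day for 6 months, starting when they were 14 months old, and the labels call it prevention. The aged condition is untreated aged mice, whose age is not stated for these cells, and the young condition is mice of 3 months. Each group had 5 mice, and left ovaries of 3 of them were pooled into 1 suspension, dissociated for 30 min at 37 °C and passed through a 40 µm strainer. The labels give no stage of the oestrous cycle, so cycle stage and condition cannot be told apart. Every condition was run in 3 library pools, A, B and C, taken here as technical repeats, since the labels do not say whether they hold different mice. Each condition is therefore 1 sample, no difference could be tested, and all intervals below are exact 95% intervals that cover counting error only.

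The metformin, aged and young conditions held 146, 111 and 822 of these cells, with 740870, 590287 and 6604071 UMIs in sum and medians of 4642, 4499 and 7600 UMIs per cell. Pools A, B and C held 53, 45 and 48 of the metformin cells, 43, 32 and 36 of the aged cells, and 268, 258 and 296 of the young cells. Among all cells 26 barcodes occurred in more than 1 pool, 4 of them on cells described here, of which 1 marked a pair of these cells. The median mitochondrial share was 6.88%, 7.23% and 6.43% of UMIs in the metformin, aged and young cells.

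The rule is partly a rule on depth. The cells described had a median of 6969 UMIs, against 17155 in the dividing cells. Just inside the limit, the 92 cells with a sum of 1 had a median of 9576 UMIs, and 21.7% of them were in G2M phase by the deposited phase calls. Just outside it, the 25 cells with a sum of 2 had a median of 13008 UMIs and 9 were in G2M. By the same calls, 280 of the cells described (25.9%) were in S phase and 74 (6.86%) in G2M, so non-dividing names the rule and not the phase call.

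The promoters of 3 genes that carry the results below are shown because each holds the letters AGGTCA, the core that nuclear receptors such as Nr5a2, a factor of granulosa cells, are known to bind. The 150 bases before the annotated start are given 5′ to 3′ on the gene's own strand, from RefSeq on build GRCm38.p6, with AGGTCA, or TGACCT where the match lies on the opposite strand, in capitals. They are Inha (chr1:75507459-75507608, plus strand), Lhcgr (chr17:88792015-88792164, minus strand) and Cyp19a1, the aromatase gene (chr9:54268165-54268314, minus strand). Cyp19a1 has 3 starts in the table, and only the 1 with the letters before it is shown. Which start these cells use was not tested.
Inha: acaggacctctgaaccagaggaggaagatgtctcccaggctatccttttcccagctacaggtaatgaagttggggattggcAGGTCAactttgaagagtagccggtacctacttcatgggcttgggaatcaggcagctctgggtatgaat
Lhcgr: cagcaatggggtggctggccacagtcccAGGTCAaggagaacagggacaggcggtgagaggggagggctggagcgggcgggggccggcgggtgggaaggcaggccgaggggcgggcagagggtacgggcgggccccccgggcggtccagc
Cyp19a1: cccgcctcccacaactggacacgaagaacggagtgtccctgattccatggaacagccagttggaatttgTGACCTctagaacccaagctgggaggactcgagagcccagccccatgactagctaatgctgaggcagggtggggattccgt

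The letters begin 69 bases before the start of Inha, 122 before that of Lhcgr and 81 before that of Cyp19a1. Searched on both strands over 250 bases before each start, they were in the promoter of 4260 of 27025 genes (15.8%). Of the 12 genes named below as highest in aged over young cells, 10 had a promoter in the table and 5 of these held the letters. Of the 12 named as lowest, 7 had one and 0 held them. For metformin over aged cells, 3 of 11 of the highest and 2 of 12 of the lowest held them. A match is a description of letters, not a binding site or a cause.

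All 4 marker genes given for the cells were present. In counts summed over all these cells and scaled per 1000000 UMIs (CPM), Inhba, the activin A subunit, stood at 991 CPM, Hsd17b1, which makes oestradiol from oestrone, at 344, Coch, which encodes the extracellular protein cochlin, at 313, and Aard at 200.1. The highest level in any other deposited class of at least 50 cells was 57.3 CPM for Inhba, 16.0 for Hsd17b1, 76.1 for Coch and 11.4 for Aard. Inha reached 2777 CPM, against 671 in the luteinized granulosa class. The dividing follicular granulosa cells, which share the authors' class, held these genes too, with 832 CPM of Inhba, 580.0 of Hsd17b1, 32.2 of Coch, 102 of Aard and 3902 of Inha. T cells, which should lack these genes, had 8.58 CPM of Inhba, 9.88 of Coch, 1.30 of Aard and 3.12 of Hsd17b1. The deposited clusters were made from these same cells, so these levels are a check of the name and no finding.

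The markers lay in different cells. With at least 3 UMIs as the limit, 160 of the cells held Inhba, 165 Coch and 191 Aard, and 10 cells held 2 or 3 of these genes. Of the Inhba cells, 1 also held Coch and 4 held Aard, while 137 (85.6%) held Hsd17b1. All 35 cells with 3 UMIs of Cyp19a1 held Inhba, and so did 53 of the 58 with Lhcgr. The remaining 573 cells, with a median of 5164 UMIs, reached the limit for none of the 3. By condition, the metformin, aged and young cells held Inhba in 51, 47 and 62, Coch in 0, 0 and 165, and Aard in 3, 4 and 184.

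The young cells, where all 3 sets occur, show which other genes went with each. The limit and the sets were chosen after values were seen, so these levels are descriptions with no test. The 58 young cells that held Inhba alone had 549 CPM of Inhbb, the activin B subunit, against 19.6 in the 176 with Aard alone and 2.81 in the 159 with Coch alone. Hsd3b1, which makes progesterone, was at 1640.2 CPM in the Inhba cells, 309 in the Aard cells and 33.0 in the Coch cells. Cyp11a1, also of progesterone synthesis, was highest in the Aard cells, at 201 CPM, against 170 in the Inhba cells and 11.3 in the Coch cells. Follistatin (Fst), which binds activin, was at 1562 CPM in the Inhba cells, 171 in the Aard cells and 188 in the Coch cells. The Inhba cells were the deepest, with a median of 10410 UMIs, against 8052 and 8166 in the Aard and Coch cells. The largest set, 420 young cells with none of the 3 genes, had a median of 6374 UMIs. It held 267 CPM of Hsd3b1, 420 of Fst and 25.6 of Inhbb.

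The Aard cells held genes listed for small growing, preantral follicles. Amh was at 475 CPM in the Aard cells, 40.8 in the Inhba cells and 5.63 in the Coch cells. Gatm, an enzyme of creatine synthesis, was at 547 CPM in the Aard cells, 8.15 in the Inhba cells and 26.7 in the Coch cells. Slc18a2, a vesicular monoamine transporter, was at 391 CPM in the Aard cells, 57.1 in the Inhba cells and 31.6 in the Coch cells. Wt1, a transcription factor of early granulosa cells, was likewise highest in the Aard cells, at 268 CPM.

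The Coch cells held genes listed for atretic granulosa cells, and the least Inha. Coch itself is listed for granulosa cells of the antral follicle wall. Vnn1, of the atretic list, went the other way, at 10.5 CPM in the Coch cells, 27.7 in the Inhba cells and 15.2 in the Aard cells. These levels rest on 15, 17 and 24 UMIs. Cald1, an actin-binding protein, was at 1609.6 CPM in the Coch cells, 40.8 in the Inhba cells and 39.2 in the Aard cells. Ghr, the growth hormone receptor, was at 310.1 CPM in the Coch cells, 31.0 in the Inhba cells and 17.7 in the Aard cells. The young cells with none of the 3 markers held 377 CPM of Cald1 and 84.4 of Ghr. Inha was at 817 CPM in the Coch cells, 6377 in the Inhba cells and 1751 in the Aard cells. The labels give no follicle stage for any of the 3 sets.

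**Figure D1:**
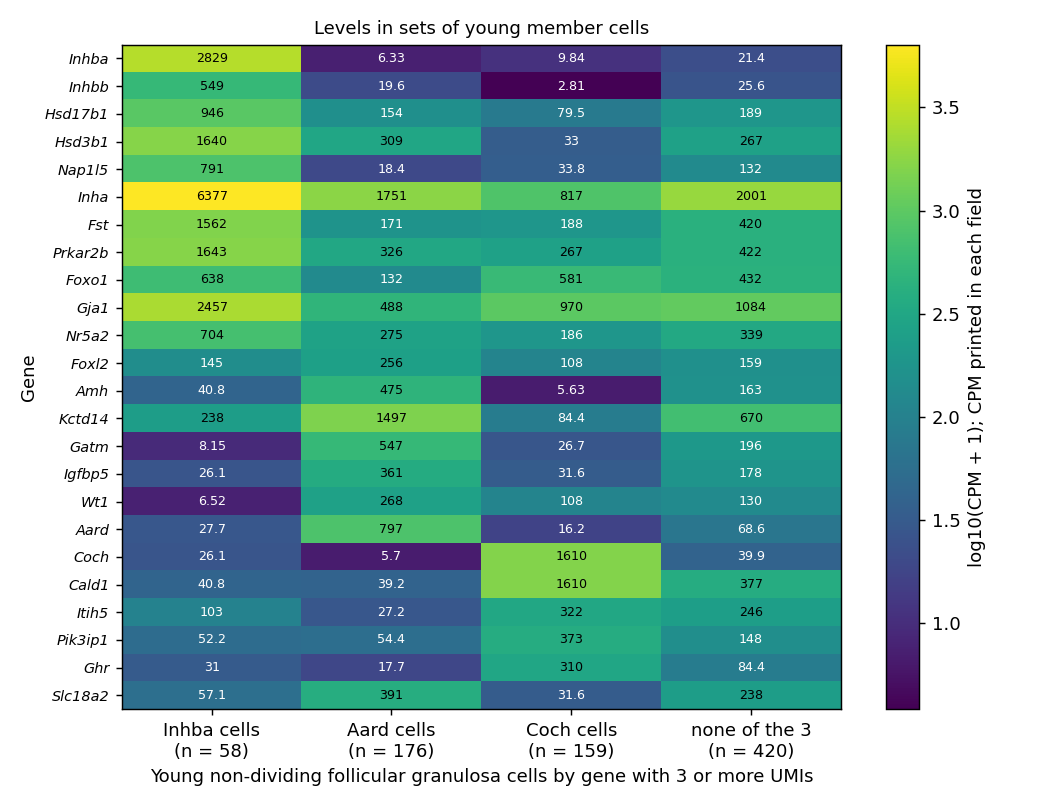
Levels of genes (rows) in young non-dividing follicular granulosa cells, grouped by which of Inhba, Aard and Coch had 3 or more UMIs (columns, with numbers of cells). Colour is CPM on a log scale, and the CPM is printed in each field; Inhbb is highest in the Inhba cells, Amh in the Aard cells and Cald1 in the Coch cells.

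The share of these cells among all cells was lower with age. They made up 3.89% of metformin cells (interval 3.29 to 4.56), 3.73% of aged cells (3.07 to 4.47) and 10.8% of young cells (10.1 to 11.5). The ratio of aged to young was 0.345 (0.281 to 0.422), with 0.327, 0.330 and 0.392 in pools A, B and C. The ratio of metformin to aged was 1.04 (0.810 to 1.35), an interval that includes 1. Among non-immune cells that ratio was 1.38, at 8.21% of metformin and 5.96% of aged cells, with 1.62, 1.81 and 0.820 in pools A, B and C. A share depends on the numbers of all other cell types as well.

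The share of dividing cells rests on the same 3 genes as the rule, so it is given as a description. Dividing cells were 10 of 156 (6.41%, 3.12 to 11.5) in the metformin condition, 20 of 131 (15.3%, 9.58 to 22.6) in the aged and 174 of 996 (17.5%, 15.2 to 20.0) in the young. The ratio of metformin to aged was 0.420, with 0.236 without pool B. By pool it was 0.427, 0.613 and 0.125, on 2, 7 and 1 dividing metformin cells. The ratio of aged to young was 0.874, with 1.18 without pool A and 0.665 without pool B. The call of a dividing cell rests on UMIs of 3 genes and so on depth, which was lower in metformin and aged than in young cells; its part in the result was not tested.

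**Figure D2:**
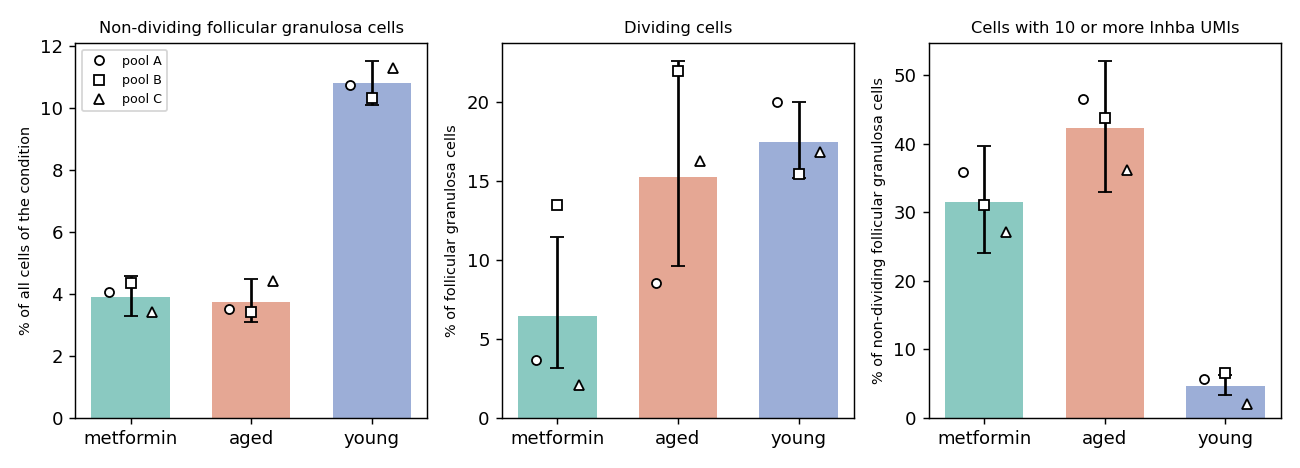
Shares in percent by condition (x axis): non-dividing follicular granulosa cells of all cells, dividing cells of follicular granulosa cells, and cells with 10 or more Inhba UMIs of the non-dividing ones. Bars give all pools together with exact 95% intervals for counting error, and symbols give pools A, B and C. In young ovaries these shares were 10.8%, 17.5% and 4.62%.

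Aged untreated ovaries were set against young ones to see how these cells differ with age. Of 9352 genes whose UMIs in both conditions summed to 50 or more, 1904 (20.4%) were more than 1.5-fold higher in the aged cells and 922 (9.86%) more than 1.5-fold lower, with 1 UMI added to each sum. The median log2 ratio over these genes was 0.18, against which list medians below are to be read. In summed counts, a different mix of cells and a different level in each cell cannot be told apart. With the added UMIs set in proportion to the totals of the conditions, a choice made after seeing the data, 1585 genes were higher and 1233 lower. After centring on the median ratio of all genes, a shift of 0.11, 54.6% of the genes past the fold were higher, in place of 67.4%.

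Activin and inhibin subunits were among the higher genes. Inhba was at 5024, 6147 and 5159.7 CPM in aged pools, against 266, 423 and 153 in young pools, a log2 ratio of 4.28 (4.20 to 4.36). Inhbb was at 881, 940.1 and 879 CPM in aged pools, against 66.2, 89.2 and 48.4 in young pools, a log2 ratio of 3.73 (3.55 to 3.92). Inha was at 7249.8, 7082 and 5525 CPM in aged pools, against 2216, 2265 and 1794 in young pools, a log2 ratio of 1.69 (1.64 to 1.75). For each of these 3 genes every aged pool lay above every young pool. The share of all genes tested whose pools do not overlap is not given, and the pools are taken as technical repeats. Pools that do not overlap, here and below, are therefore a description and no support, also because the naming rule asked for 1 sign in the pools. Fst was at 1823 CPM in the aged and 414 CPM in the young cells (log2 2.14, 2.04 to 2.24). Of 11 genes listed for ligands of the TGF-β family and related signals 9 were tested, 6 were past 1.5-fold higher and 2 lower, with a median log2 ratio of 1.69.

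Hsd17b1 and Cyp19a1, which make oestradiol, were higher too. Hsd17b1 was at 932, 1316 and 1244 CPM in aged pools, against 232, 258 and 193 in young pools, a log2 ratio of 2.32 (2.18 to 2.45). Cyp19a1 was at 199, 225 and 176 CPM in aged pools, against 9.28, 19.7 and 5.12 in young pools, a log2 ratio of 4.16 (3.74 to 4.61). The pools of the conditions did not overlap for either gene. Nr5a2 was at 791 CPM in the aged and 327 CPM in the young cells (log2 1.28, 1.13 to 1.42). Of 12 genes listed for the response to FSH and for oestradiol, 12 were tested, 8 were past 1.5-fold higher and 1 lower, with a median log2 ratio of 1.42.

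Receptors and transcription factors of granulosa cells pointed in both directions. Fshr, the FSH receptor, was at 52.5 CPM in the aged and 20.3 CPM in the young cells, from 31 and 134 UMIs (log2 1.41, 0.76 to 1.94). Esr2, the oestrogen receptor of these cells, was at 74.5 CPM in the aged and 87.5 CPM in the young cells, and its interval (-0.71 to 0.21) includes 0. Amhr2, the receptor of AMH, was at 134 CPM in the aged and 206 CPM in the young cells (log2 -0.60, -0.97 to -0.29). Foxl2, which keeps granulosa identity, was at 285 CPM in the aged and 168 CPM in the young cells (log2 0.77, with 0.52 as its lower bound). Foxo1, which insulin and FSH signals inactivate, was at 578 CPM in the aged and 416 CPM in the young cells (log2 0.48, 0.31 to 0.64), under 1.5-fold.

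Genes of the exchange with the oocyte were mostly higher. Gja1, the gap junction protein connexin 43, was at 2567 CPM in the aged and 1041 CPM in the young cells (log2 1.30, 1.22 to 1.38). Nppc, whose peptide keeps the oocyte in meiotic arrest, was at 364 CPM in the aged and 58.3 CPM in the young cells (log2 2.65, 2.40 to 2.89). Kitl, the ligand of the receptor Kit on the oocyte, was at 337 CPM in the aged and 188 CPM in the young cells (log2 0.85, 0.62 to 1.06). Of the 12 listed genes 9 were tested, with 5 past 1.5-fold higher, 1 lower and a median log2 ratio of 0.85.

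Genes of progesterone synthesis and luteinization were higher in the aged cells as well. Lhcgr was at 207, 188 and 337 CPM in aged pools, against 28.7, 27.8 and 2.33 in young pools, a log2 ratio of 3.55 (3.19 to 3.91). Its pools did not overlap, and without pool C the ratio was 2.82. Cyp11a1, which makes pregnenolone from cholesterol, was at 625 CPM in the aged and 78.6 CPM in the young cells (log2 2.99, 2.80 to 3.19). Prlr, the prolactin receptor, was at 540.4 CPM in the aged and 33.8 CPM in the young cells, with a log2 interval of 3.75 to 4.25. Of 14 listed genes 9 were tested, 8 were past 1.5-fold higher and 1 lower. Hsd3b1, Cyp11a1 and Prlr are also in the list of 7 luteal cell markers, which, with none at 0, summed to 3724 CPM in aged and 485 CPM in young cells, and their part in the result was not tested. The 8 markers of theca cells, the androgen-making cells around the follicle, summed to 1069 CPM in aged cells, with Gli1 at 0, and 316 CPM in young cells. They include Col1a1, which is also a stromal marker, and Mgarp, which went with Inhba in young cells. Mgarp was at 295 CPM in the young Inhba cells, 38.6 in the Aard cells and 58.4 in the Coch cells. How far these genes set the sum was not tested.

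Other genes among the 12 highest have varied roles. Grem1, a secreted antagonist of bone morphogenetic proteins, was at 398, 407 and 323 CPM in aged pools, against 10.5, 22.5 and 3.26 in young pools, a log2 ratio of 4.99 (4.62 to 5.39). Elovl6, which lengthens fatty acids, was at 256 CPM in the aged and 23.2 CPM in the young cells, and Nap1l5, an imprinted gene, was at 1355 CPM in the aged and 143 CPM in the young cells. The homeobox gene Rhox8 was uneven, at 378, 57.5 and 105 CPM in aged pools, with 44.7% of its aged UMIs in 1 cell. Its log2 ratio was 4.06, with 2.54 without pool A and 4.93 without pool B. That of Grem1 was 5.68 without pool B. Zpld1, Masp1 and Psd completed the 12, with log2 ratios of 4.23, 3.46 and 3.48, that of Psd being 2.89 without pool A.

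Genes of preantral follicles were lower in the aged cells. All 7 listed genes were tested and were past 1.5-fold lower, with a median log2 ratio of -2.05. Amh was at 11.7, 62.7 and 0 CPM in aged pools, against 245, 165 and 165 in young pools, a log2 ratio of -2.84 (-3.77 to -2.20), and 73.3% of its 15 aged UMIs lay in 1 cell. Slc18a2 was at 19.5, 20.9 and 14.1 CPM in aged pools, against 196, 235 and 202 in young pools, a log2 ratio of -3.37 (-4.50 to -2.65). The ratio of Amh was -2.09 without pool A and -4.37 without pool B. Neither gene's pools overlapped. Kctd14 differed least of the 7, at 373 CPM in the aged and 690.3 CPM in the young cells (log2 -0.88, -1.09 to -0.69). Over all conditions Kctd14 was at 661 CPM in these cells and 2882 in surface epithelium, and Gatm at 204 and, in a macrophage class, 279. The 8 markers of surface epithelium summed to 30.5 CPM in aged cells, with 5 at 0, and 109 in young cells. Their part in the result was not tested.

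Coch was almost absent from the metformin and aged cells. It had 1 UMI in the metformin cells, 1 UMI in the aged cells and 2481 UMIs in the young cells, or 1.35, 1.69 and 376 CPM. The log2 ratio of aged to young was -6.79 (-13.10 to -5.31). Coch is in the list for granulosa cells of the antral follicle wall, of which 8 of 8 genes were tested. Of these, 5 were past 1.5-fold higher and 2 lower, with a median log2 ratio of 2.48. Aard was at 11.7, 99.2 and 70.3 CPM in aged pools, against 227, 270.0 and 196 in young pools, a log2 ratio of -2.04 (-2.64 to -1.58). Its pools did not overlap, although the aged ones ranged widely. Of the 6 genes listed for atretic granulosa cells, 6 were tested, 0 were past 1.5-fold higher and 3 lower, with a median log2 ratio of -0.71. In cells with under 3 UMIs of Inhba, 64 aged and 760 young, 2 of these 6 were higher and 1 lower, with a median of 0.28. Of all 8914 genes tested in them 31.4% were higher and 12.8% lower, with a median of 0.25.

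Calb1, a calcium-binding protein, Prg4, a lubricant protein of joints, and Fgd5 had 0 UMIs in aged cells, so only limits can be given. With 3 UMIs over the condition as the most that a count of 0 allows, they were at least 7.96-fold, 5.93-fold and 5.51-fold lower in aged than in young cells. The imprinted gene Peg10 was at 3.39 CPM in the aged and 80.6 CPM in the young cells, on 2 aged UMIs (log2 -3.99, -7.62 to -2.71). Nnat, imprinted as well, was at 15.2 CPM in the aged and 157 CPM in the young cells (log2 -3.21, -4.50 to -2.43). Ccn2, a matricellular protein, was at 16.9 CPM in the aged and 196 CPM in the young cells, and 40% of its 10 aged UMIs lay in 1 cell. Tex14, Col18a1 and Col9a2 completed the 12 lowest, with log2 ratios of -3.56, -3.33 and -3.20 on 4, 4 and 3 aged UMIs. On so few UMIs single pools moved the ratios: without pool A that of Peg10 was -4.82, of Col9a2 -4.39 and of Tex14 -2.92, and without pool B that of Tex14 was -4.37.

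**Figure D3:**
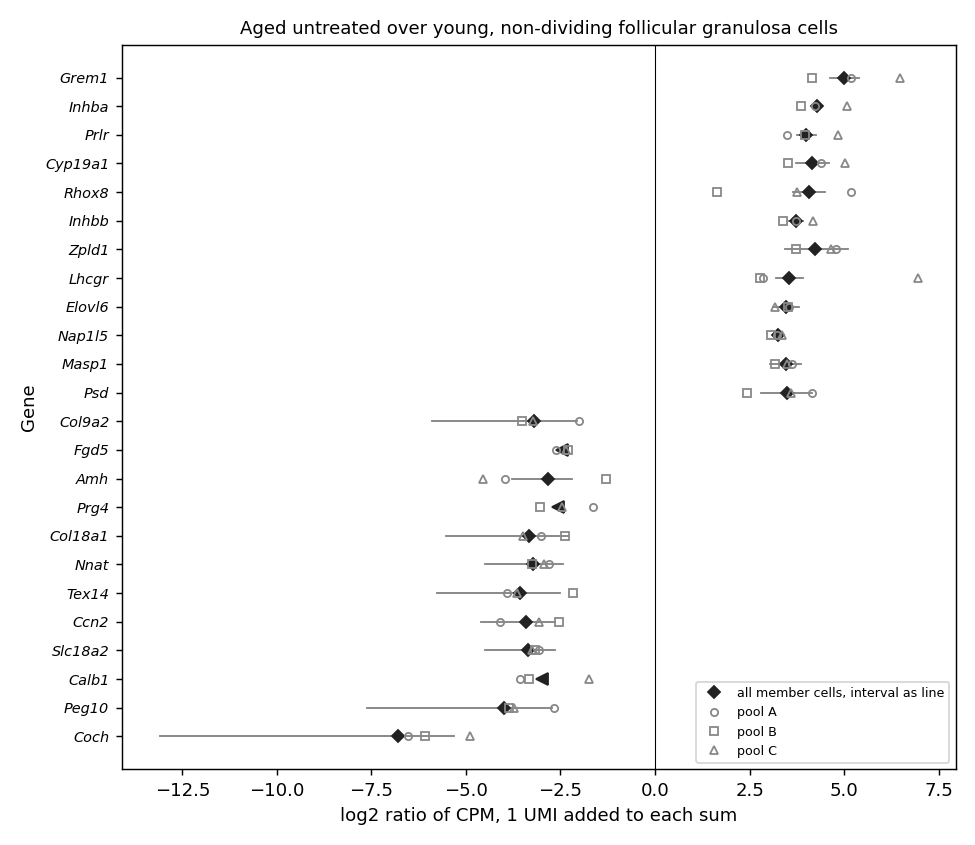
log2 ratio of aged untreated over young CPM (x axis, 1 UMI added to each sum) for the 12 highest and 12 lowest genes by the naming rule (y axis). Filled symbols are all cells with the exact 95% interval as a line, open symbols are pools A, B and C, and left-pointing triangles are the limits of genes with 0 aged UMIs. Grem1 is at 4.99, Inhba at 4.28 and Coch at -6.79.

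**Figure D4:**
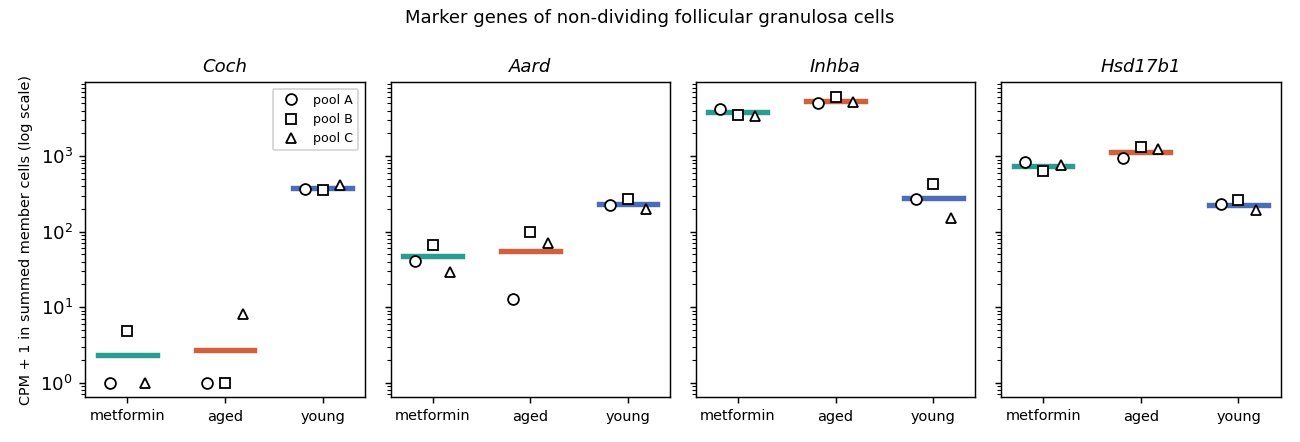
CPM of Coch, Aard, Inhba and Hsd17b1 (log scale) in summed non-dividing follicular granulosa cells by condition (x axis), for all pools together and for pools A, B and C. Coch and Aard were highest in young cells, and Inhba and Hsd17b1 in aged cells.

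Drawing 2000 UMIs from each cell, which left out 29 metformin, 32 aged and 75 young cells, gave the share of cells with a UMI at equal depth. Inhba was found in 42.7% (33.6 to 52.2) of metformin cells, 62.0% (50.4 to 72.7) of aged cells and 7.90% (6.07 to 10.1) of young cells. In T cells thinned alike, which show free RNA, it was in 0.730%, 2.06% and 1.34%. The median depths before thinning were 5542, 6070 and 7938 UMIs in these granulosa cells, and 2539, 2616 and 2918 in T cells of the metformin, aged and young conditions. Not thinned, Inhba was in 39.7%, 46.8% and 15.8% of the metformin, aged and young granulosa cells.

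Coch was in 0.855%, 1.27% and 23.8% of the thinned metformin, aged and young cells, against 1.70%, 1.03% and 0.446% of T cells, so its few counts in metformin and aged cells lie near the level of free RNA. Not thinned, Coch was in 0.685%, 0.901% and 32.5%. Aard was found in 5.98%, 8.86% and 25.4% of thinned metformin, aged and young cells, and in 9.59%, 8.11% and 42.9% not thinned. Lhcgr was found in 29.9% (21.8 to 39.1) of metformin cells, 21.5% (13.1 to 32.2) of aged cells and 1.07% (0.463 to 2.10) of young cells, against 0.487%, 0% and 0% of T cells. Not thinned, Lhcgr was in 32.2%, 22.5% and 2.31% of the granulosa cells. The shares of Inhba and Lhcgr were thus far above those in T cells in metformin and aged ovaries.

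Lists for cholesterol synthesis and glycolysis were higher in the aged cells, and those of oxidative phosphorylation were near all genes. For cholesterol synthesis 14 of 18 genes were tested and 14 were past 1.5-fold higher, with a median log2 ratio of 1.32. For glycolysis 14 of 15 were tested and 12 were past 1.5-fold higher, with medians of 1.09, 0.77 and 1.08 in pools A, B and C. Ldha, which makes lactate from pyruvate, was at 539 CPM in the aged and 267 CPM in the young cells (log2 1.02, 0.83 to 1.18). The 26 nuclear genes of oxidative phosphorylation had a median of 0.17, near that of all genes, with 1 past the fold.

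Ribosomal protein genes, a list added after values were seen, were lower. Of 83 tested, 45 were past 1.5-fold lower and 0 higher, with a median log2 ratio of -0.60. The list for senescence and p53 had 7 of 14 genes tested, 5 higher and a median of 1.49, which was 0.28 in thinned cells. Its gene Cdkn1a, the cell cycle inhibitor p21, was at 27.3, 178 and 141 CPM in aged pools, against 16.0, 22.5 and 21.9 in young pools (log2 2.38, 1.91 to 2.82). For apoptosis 15 of 18 were tested, 4 were past 1.5-fold higher and 0 lower, with a median of 0.33.

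Cells rich in Inhba made up a larger share of the aged than of the young cells. Cells with 10 or more Inhba UMIs, a limit chosen after values were seen, were 46 of 146 in the metformin condition (31.5%, 24.1 to 39.7), 47 of 111 in the aged (42.3%, 33.0 to 52.1) and 38 of 822 in the young (4.62%, 3.29 to 6.29). By pool they were 35.8%, 31.1% and 27.1% of metformin cells, 46.5%, 43.8% and 36.1% of aged cells, and 5.60%, 6.59% and 2.03% of young cells. Every pool of metformin and of aged cells lay above every young pool. Just under the limit, with 5 to 9 UMIs, lay 2 metformin, 0 aged and 14 young cells, and with 10 to 19 lay 8, 5 and 16.

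Within these Inhba-rich cells the medians for glycolysis, cholesterol synthesis and the response to FSH were lower than over all the cells. Fewer genes of these lists were tested in them, 9, 6 and 9 against 14, 14 and 12, so the medians are over unlike sets of genes. Aged and young cells of the set also differed in depth, with medians of 7312 and 10410 UMIs. There 14.1% of 2786 genes tested were past 1.5-fold higher in aged over young cells and 5.06% lower, with a median log2 ratio of 0.11. Cells with under 3 Inhba UMIs were 64 aged and 760 young ones, and the median over all genes tested in them was 0.25. Of these cells, 60 aged and 420 young also had under 3 UMIs of Coch and Aard, with medians of 1852.5 and 6374 UMIs. In the set 12 of 13 fibrillar collagen and matrix genes were past 1.5-fold higher, with a median of 2.33, against 31.4% of all genes tested. How far cells low in granulosa markers, described below, set its medians was not tested. Glycolysis had a median of 0.48 in the Inhba-rich cells and -0.24 in cells with under 3 Inhba UMIs. Cholesterol synthesis had medians of 0.67 and 0.49, both under the 1.32 of all the cells. The response to FSH had 0.41 and -0.01, against 1.42 in all the cells. Ribosomal protein genes had -0.58 and -0.50, close to the -0.60 of all the cells. Preantral genes had -0.53 in cells with under 3 Inhba UMIs, against -2.05 in all the cells.

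Some of the cells carried markers of other cell types. Cells with fewer than 3 UMIs of granulosa markers, or with no more of these than of stromal fibroblast and leukocyte markers, were 31 of 146 metformin cells (21.2%), 31 of 111 aged cells (27.9%) and 77 of 822 young cells (9.37%). They were shallow, with medians of 1235, 1077 and 1203 UMIs. The 9 stromal fibroblast markers, with none at 0, summed to 459 CPM in metformin, 749 in aged and 217 in young cells. By pool A, B and C they were at 218, 548 and 739.5 CPM in metformin and 733, 1065 and 351 CPM in aged cells, so metformin cells were the lower in pools A and B and the higher in pool C. The 6 common leukocyte markers, also with none at 0, summed to 208, 168 and 100.1 CPM. In metformin and aged cells pool C was the highest, with 99.0, 77.1 and 583 CPM in pools A, B and C of metformin cells, 81.9, 125 and 379.6 in aged and 94.9, 95.9 and 109.9 in young cells. All 5 erythrocyte markers were at 0 in metformin and aged cells.

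Over all cells 13 of 15 genes listed for fibrillar collagens and matrix were tested and 9 were past 1.5-fold higher in aged cells, with a median log2 ratio of 1.04. The list shares 5 of its 15 genes with the stromal markers that served to choose the cells just described. Without those cells its median was -0.67, which that choice sets in part. How far it does so was not tested. Col1a2, a chain of collagen I, was at 132 CPM in the aged and 25.0 CPM in the young cells, all of them included. Interferon and MHC class I genes, 10 of 13 tested being higher with a median of 0.65, had 0.05 in Inhba-rich cells and 1.72 in cells with under 3 Inhba UMIs. Without the cells low in granulosa markers, 24 of the 24 named genes stayed past 1.5-fold in their direction. They were picked from these same data by that fold, so this is a description and no support.

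Metformin-treated aged ovaries were set against untreated aged ones to see how the drug bears on these cells. Of 4428 genes tested, 257 (5.8%) were past 1.5-fold higher in the metformin cells and 236 (5.33%) lower, and the median log2 ratio was 0.01. The count of higher genes was 165 without pool A and 166 without pool B. Both comparisons use the same aged cells, so a level that is off in those cells moves both, in opposite directions.

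Lhcgr led the higher genes by the naming rule, unevenly between pools. It was at 1142, 759.7 and 381 CPM in metformin pools, against 207, 188 and 337 in aged pools, a log2 ratio of 1.82 (1.56 to 2.11). Every metformin pool lay above every aged pool, but the ratios in pools A, B and C were 2.44, 1.98 and 0.17, and without pool A the whole was 1.25. Fdx1, which passes electrons to steroid-making enzymes, was at 4204, 3008 and 2196 CPM in metformin pools, against 2354, 1290.0 and 1750.4 in aged pools (log2 0.82, 0.72 to 0.93). Cyp11a1 was at 1053, 1226 and 538 CPM in metformin pools, against 963, 376 and 351 in aged pools (log2 0.66, 0.48 to 0.85).

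Other genes of steroid synthesis did not share that direction. Hsd3b1 was at 2429.6 CPM in the metformin and 2534 CPM in the aged cells, and its interval (-0.16 to 0.04) includes 0. Cyp19a1 was at 132, 88.7 and 168 CPM in metformin pools, against 199, 225 and 176 in aged pools (log2 -0.68, -1.09 to -0.28). Hsd17b1 was at 838, 636 and 768 CPM in metformin pools, against 932, 1316 and 1244 in aged pools (log2 -0.59, -0.76 to -0.43). Of 14 listed genes of steroid synthesis and luteinization 6 were tested, 2 were past 1.5-fold higher and 0 lower, with a median log2 ratio of 0.23. The 2 higher ones are Lhcgr and Cyp11a1, given above. The luteal markers summed to 4261 CPM in metformin and 3724 CPM in aged cells.

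Inhbb led the lower genes by the naming rule. It was at 280.5, 123 and 353 CPM in metformin pools, against 881, 940.1 and 879 in aged pools, a log2 ratio of -1.88 (-2.14 to -1.64), with no overlap of pools. Inhba was at 4273, 3552 and 3406 CPM in metformin pools, against 5024, 6147 and 5159.7 in aged pools, a log2 ratio of -0.51 (-0.58 to -0.43) that is not past 1.5-fold. The Inhba pools did not overlap either. Fst was at 1219 CPM in the metformin and 1823 CPM in the aged cells (log2 -0.58, -0.71 to -0.45) and Inha at 5672 CPM in the metformin and 6779.8 CPM in the aged cells (log2 -0.26, -0.32 to -0.19), both under 1.5-fold. Of the 11 genes listed for ligands of the TGF-β family and related signals 8 were tested. Of these, 3 were past 1.5-fold higher and 1 lower, with a median log2 ratio of -0.34.

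Grem1 and Nap1l5, high in aged over young cells, were lower in metformin cells. Grem1 was at 155, 84.8 and 118 CPM in metformin pools, against 398, 407 and 323 in aged pools, a log2 ratio of -1.65 (-2.03 to -1.30). Nap1l5 was at 587, 343 and 549 CPM in metformin pools, against 1505, 1306 and 1153 in aged pools, a log2 ratio of -1.46 (-1.64 to -1.28). Neither gene's pools overlapped. Htra1, a secreted protease, was at 379, 169.7 and 303 CPM in metformin pools, against 721, 674 and 689 in aged pools (log2 -1.28, -1.53 to -1.04). The others of the 12 lowest were Dnajb13, Alms1, Slc38a5, Tram2, Thbs4, Eri3, Armcx5 and Tox2, with log2 ratios of -2.47 to -1.30. Thbs4 was at -1.33 without pool B.

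Ccnd2, the cyclin through which FSH drives granulosa division, was at 191, 197 and 229.7 CPM in metformin pools, against 312, 496 and 598 in aged pools (log2 -1.12, -1.42 to -0.83), without overlap of pools. Foxo1 was at 351 CPM in the metformin and 578 CPM in the aged cells (log2 -0.72, -0.96 to -0.48). Fshr was at 24.3 CPM in the metformin and 52.5 CPM in the aged cells, from 18 and 31 UMIs (log2 -1.08, -2.04 to -0.23). The list for the response to FSH and for oestradiol did not fall as a whole. Of its 12 genes 8 were tested, 3 were past 1.5-fold higher and 2 lower, with a median of -0.05. In cells with 10 or more Inhba UMIs 3 of 8 were higher and 0 lower, with a median of 0.36. Of all genes tested in those cells 8.3% were higher and 6.7% lower, with a median of 0.03. Lhcgr and Fdx1, given above as higher, are among the genes of this list. Ldha, of glycolysis, was at 356, 189 and 241 CPM in metformin pools, against 729, 381 and 408 in aged pools (log2 -0.99, -1.26 to -0.74). Of the 15 glycolysis genes 10 were tested, all 10 of these had ratios under 0 and 1 was past 1.5-fold, with a median of -0.32. In cells with under 3 Inhba UMIs 8 were tested, 0 were past the fold lower and 1 higher, with a median of 0.30. Of all genes tested in them 8.09% were higher and 6.62% lower, with a median of 0.05. These cells were 95 metformin and 64 aged ones. In them 6 of 6 fibrillar collagen and matrix genes tested were past the fold lower, with a median of -1.36.

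Most preantral genes were higher in metformin than in aged cells as a whole, and fewer within cells with under 3 Inhba UMIs. Of the 7 listed, 6 were tested, 5 were past 1.5-fold higher and 0 lower, with a median log2 ratio of 0.89 against 0.01 for all genes. In cells with under 3 Inhba UMIs 1 of 6 tested was higher, with a median of 0.21, against 8.09% higher and 6.62% lower of all genes tested in them and a median of 0.05. Slc18a2 was at 89.1, 69.4 and 72.8 CPM in metformin pools, against 19.5, 20.9 and 14.1 in aged pools, a log2 ratio of 1.97 (1.13 to 3.15) on 58 and 11 UMIs. Kctd14 was at 729, 459 and 689 CPM in metformin pools, against 382, 329 and 415 in aged pools (log2 0.74, 0.51 to 0.98). Neither gene's pools overlapped. Igfbp5, which binds insulin-like growth factors, was at 178 CPM in the metformin and 77.9 CPM in the aged cells (log2 1.17, 0.70 to 1.71). Gatm was at 119 CPM in the metformin and 105 CPM in the aged cells and Aard at 45.9 and 54.2 CPM, and both intervals include 0.

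Of the 6 genes listed for atretic granulosa cells 4 were tested and 2 were past 1.5-fold higher, with a median log2 ratio of 0.62. Pik3ip1, which restrains PI3-kinase, was at 112, 201 and 89.6 CPM in metformin pools, against 54.6, 36.6 and 70.3 in aged pools (log2 1.36, 0.80 to 2.02). Clu, the chaperone clusterin, was at 1567, 1299.5 and 1866 CPM in metformin pools, against 1123, 653 and 956 in aged pools (log2 0.73, 0.58 to 0.88). Cald1, which went with Coch in young cells, was at 281 CPM in the metformin and 264 CPM in the aged cells, and its interval (-0.22 to 0.40) includes 0. The other genes named as higher were Tulp2, Col11a1, Pcgf3, Bmp2, Grb14, Nfat5, Bmp2k, Acsbg1 and Omd, with log2 ratios of 0.88 to 1.62. Nfat5 was under 1.5-fold without pool A, at 0.57. Without pool A Pcgf3 was at 0.96, and without pool B Col11a1 was at 0.93 and Pik3ip1 at 0.76.

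Lists for pathways that metformin is known to touch lay near all genes. For AMPK, mTOR and their targets 5 of 20 genes were tested, 0 were higher and 1 lower, with a median log2 ratio of -0.11. Nuclear genes of oxidative phosphorylation, 26 tested, had a median of -0.06, and the 13 mitochondrial genes one of 0.01, with 0 past 1.5-fold in either direction. For cholesterol synthesis 9 were tested, 1 was lower, and the median was -0.17.

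The Inhba-rich cells allow metformin and aged cells of similar Inhba level to be set side by side. Lhcgr was at 2148, 1660.5 and 824 CPM in their metformin pools, against 279, 274 and 485 in aged pools, a log2 ratio of 2.36 (2.10 to 2.66). Fdx1 was at 6858 CPM in the metformin and 2557 CPM in the aged cells (log2 1.42, 1.32 to 1.53). Cyp11a1 was at 2076 CPM in the metformin and 873 CPM in the aged cells (log2 1.25, 1.06 to 1.44), and Prlr at 1459 and 718 CPM (log2 1.02, 0.81 to 1.24). Each of these 4 genes was higher in metformin cells in all 3 pools. The steroid list had 6 genes tested here, 3 higher and a median of 0.68, against 0.03 for the 2687 genes tested, of which 8.3% were higher and 6.7% lower. Its 3 higher genes are Lhcgr, Cyp11a1 and Prlr, just given, so the count restates them and is no further support.

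Inhba itself was at 8365 CPM in the metformin and 7743 CPM in the aged cells of this set, which was chosen on it. Inhbb was at 493 CPM in the metformin and 1286 CPM in the aged cells (log2 -1.38, -1.64 to -1.13). Ccnd2 was at 185 CPM in the metformin and 514 CPM in the aged cells (log2 -1.46, -1.90 to -1.06). Ldha was at 290.1 CPM in the metformin and 708 CPM in the aged cells (log2 -1.28, -1.63 to -0.95). Inhbb, Ccnd2 and Ldha were lower in metformin cells in all 3 pools. Omd, named as higher in all the cells, was at -0.11 here, with an interval that includes 0.

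Young cells of this set, 38 in number, were lower than the aged ones for some genes and higher for others. Lhcgr was at 1684 CPM in metformin, 325 in aged and 169.5 in young cells, and Fdx1 at 6858, 2557 and 833 CPM. Serpine2, a protease inhibitor, was at 784 CPM in metformin, 1608 in aged and 2230.0 in young cells. For Lhcgr, Fdx1 and Serpine2 alike the aged level lay between the young and the metformin level. The number of follicles these cells came from is not given.

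**Figure D5:**
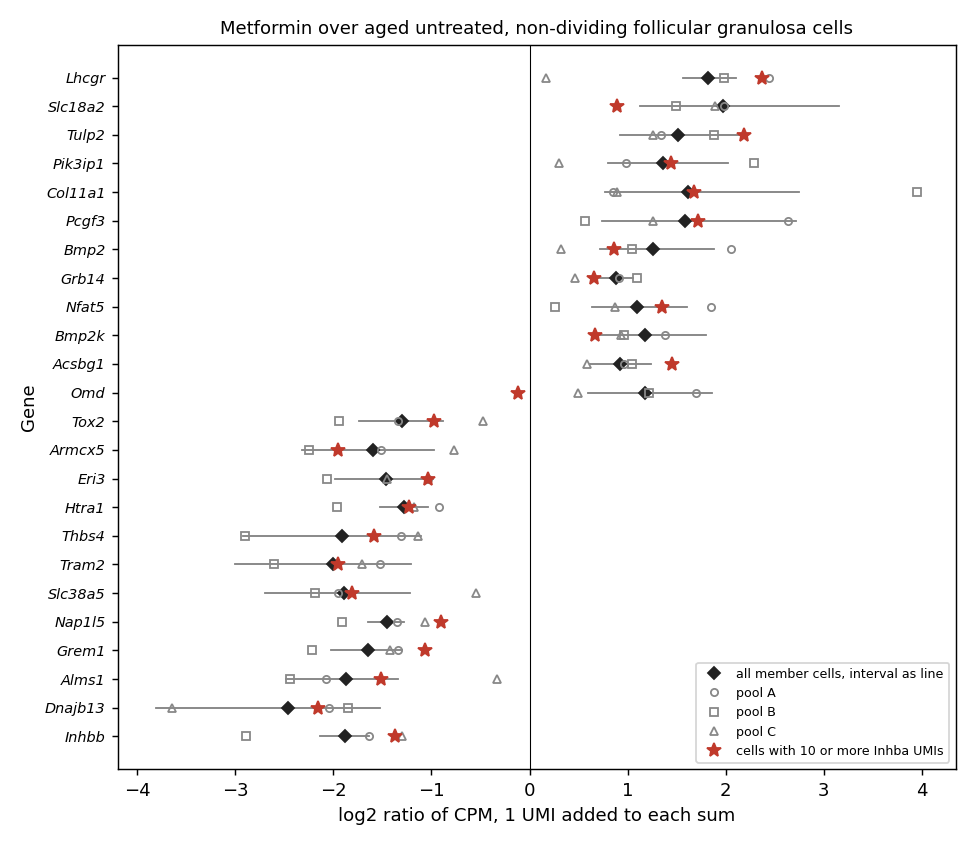
log2 ratio of metformin over aged untreated CPM (x axis, 1 UMI added to each sum) for the 12 highest and 12 lowest genes by the naming rule (y axis). Filled symbols are all cells with the exact 95% interval as a line, open symbols are pools A, B and C, and stars are the cells with 10 or more Inhba UMIs. Lhcgr is at 1.82 and Inhbb at -1.88.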

How the data were processed

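The authors deposited whole-number UMI counts, 18789 genes by 14353 cells, and, per the file headers, each cell's pool, tag, condition, class, phase and mitochondrial percent. Cell Ranger 3.0.2 and GRCm38 are named in the submitters' processing notes. UMIs summed per cell differed from the deposited totals in 0 cells. No doublet caller was run, and doublets may remain.

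Counts were added up by condition and expressed as CPM. Genes with 50 or more UMIs in sum were compared against a fold of 1.5, with 1 UMI added. Ratio intervals are exact and conditional on the sum, share intervals are Clopper-Pearson, and a count of 0 allows 3 counts. The functions were tested on simulated counts (Python 3.11.15, SciPy 1.17.1).

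The naming rule took the 12 genes highest and 12 lowest by the interval bound nearest 0, past 1.5-fold and with 1 sign in every pool of at least 20 cells. Left out were genes of mitochondria, of ribosomal proteins and of haemoglobin, Malat1, Xist, Tsix, unnamed gene models, the rule's own 3 genes and genes over 10 times higher in another class. Granulosa genes and up to 4 members of each list were added; genes of the Inhba, Coch and Aard sets were picked after values were seen. The members, 31 gene lists and 15 marker lists were chosen with earlier results of these data known. Alternatives were leaving out each pool, other minimums, added UMIs and scalings, thinning, weighting by cells or pools, and other choices of cells.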

Additional observations from a re-analysis of the deposited data

How the results depend on the processing

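Which genes passed a fold of 1.5 depended on the minimum count and on the weighting, while the 24 named genes of each comparison mostly kept their side of it. Those genes were picked from these same data by their interval bounds, past the fold and with 1 sign in the pools. Their staying past it is thus largely fixed by that choice and is no support. Leaving out pool A, B or C in turn kept 24 of the 24 in aged over young cells each time and 23 to 24 in metformin over aged cells. Over the other settings that give values for them, 24 kept it in aged over young cells and 22 (cells weighted equally) to 24 in metformin over aged cells. The same omissions gave 165 to 270 genes higher in metformin cells, 2 to 5 lists past the fold there (main 3), and a median for inflammatory genes in aged over young cells of -0.036 to 0.71 (main 0.75). A minimum of 20 UMIs gave 711 genes higher and 647 lower in metformin cells. A minimum of 200, which tests fewer genes, gave 631 and 412 in aged over young cells, 27 and 31 in metformin over aged cells, and 1 list past the fold in the second comparison. Adding 5 UMIs to each sum gave 3525 genes higher and 338 lower in aged cells, since the same number weighs more on the smaller aged sum. Thinning to 2000 UMIs, which tests fewer genes, gave 1080 and 532 in aged over young cells, and 84 and 66 in metformin over aged cells. Weighting cells equally gave 1396 genes lower in aged cells, and 431 higher and 378 lower in metformin cells. With dividing cells included, 407 genes were higher in metformin cells, 5 lists passed the fold there, and the median for G2M division genes in aged over young cells was 0.20 (main -0.59). The dividing cells were set apart by genes of division, which sets that last move in part. Without the cells low in granulosa markers, a choice made after seeing the data, the fibrillar collagen median was -0.67 (main 1.04). That list shares 5 genes with the markers used to choose the cells, which sets the move in part, and how far was not tested. The share ratio of aged to young was then 0.275 (main 0.345). Among non-immune cells the share ratio of metformin to aged was 1.38 (main 1.04). Not thinned, the ratio of aged to young in the share of cells with a UMI was 2.96 for Inhba (main 7.85) and 1.15 for Hsd17b1 (main 2.51). Thinning sets depth equal and leaves out a larger share of the aged than of the young cells, so these ratios are over unlike cells. Where no construction is given, the cause was not tested. No paired analysis was possible because each condition is 1 sample and no test was made. Depth limits which genes can be compared: 4428 reached 50 UMIs in metformin and aged cells together, and 9352 in aged and young cells together.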

Other observations

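Of 10 genes tested for signals of insulin and its related growth factors, 2 were past 1.5-fold higher in aged over young cells and 5 lower, with a median log2 ratio of -0.24. Igf1, which granulosa cells of growing follicles make, was at 61.0 CPM in the aged and 121 CPM in the young cells (log2 -0.95, -1.51 to -0.50) and Igf1r, its receptor, at 139 CPM in the aged and 237 CPM in the young cells (log2 -0.75, -1.11 to -0.45). The 11 genes tested of the basement membrane around the follicle had medians of 0.71, -0.20 and -0.44 in pools A, B and C, so the pools differed in sign. For DNA repair 12 genes were tested, 0 were higher, 1 was lower and the median was -0.09. Immediate early genes, which dissociation of tissue is known to switch on, had a median of 0.02 in metformin over aged cells (18 tested) and -0.13 in aged over young cells (20 tested). Within cells with under 3 Inhba UMIs 6 of 18 were past 1.5-fold lower in metformin over aged cells, with a median of -0.44. Of all genes tested there 6.62% were lower, and their median was 0.05. In aged over young cells of the same set 11 of 20 were higher, with a median of 0.64. Of all genes tested there 31.4% were higher, and their median was 0.25. For ovulation and expansion of the cumulus only 5 of 15 listed genes had enough UMIs to be tested in aged over young cells, and 1 of them was higher.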
